A study of Mus musculus with 12 samples.

Results

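The 8 genes described here are markers of the trophoblast lineage: the transcription factors *Cdx2*, *Elf5*, *Hand1* and *Tfap2c* and the keratins *Krt7*, *Krt8*, *Krt18* and *Krt19*. They were chosen by name, and all 8 were found among the 24881 gene symbols of an RNA-seq table. RNA was taken from mouse R1 ESCs, an embryonic stem cell line, after sorting of cells in G1 phase. All cells carried the FUCCI reporters, whose fluorescence tells G1 from later cell cycle phases. They were either WT or P53-/-, made with CRISPR/Cas9 guides against *Trp53*, and were grown with serum and LIF (serum ESCs) or in 2i (2i ESCs). The 2i medium holds N2B27, the MEK inhibitor PD0325901, the GSK3 inhibitor CHIR99021 and LIF. Each genotype in each culture had 2 libraries, which gave 4 groups called WT serum, WT 2i, P53-/- serum and P53-/- 2i. The comparisons ask what the loss of P53 changes in each culture and how ESCs differ between the cultures. The study made its P53-/- libraries from clones 1 and 2, and the table does not say which library came from which clone. Libraries of a group are therefore numbered by the order of their columns. Nothing says whether the WT libraries came from separate cultures, so that p-values measure the spread between these libraries, which may be technical.

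The trophoblast arises from the trophectoderm, the outer epithelium of the blastocyst, and ESCs derive from the inner cell mass that it surrounds. *Cdx2* sets up the trophectoderm, *Elf5* and *Tfap2c* sustain trophoblast stem cells, and *Hand1* drives the formation of trophoblast giant cells. Keratins are the intermediate filaments of epithelia, built from pairs of a type II chain (*Krt7*, *Krt8*) and a type I chain (*Krt18*, *Krt19*), and *Krt8* and *Krt18* are among the first keratins that the embryo makes.

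In short, 2 of the 8 genes, *Krt8* and *Krt18*, were called higher in 2i than in serum ESCs of both genotypes, and *Krt8* rose 13.1-fold in WT and 13.6-fold in P53-/- ESCs (3.22 to 4.20 and 3.12 to 4.42 on the log2 scale with single libraries left out). Of all genes tested, 27.2% were called higher in 2i in WT and 28.0% in P53-/- ESCs. *Krt7* was highest in both P53-/- 2i libraries, but it was tested only because of those libraries, its call against WT 2i (limma adjusted p = 0.0972) was lost without any 1 of 3 libraries, and the difference of the P53 effects between the cultures did not pass (limma adjusted p = 0.307). *Tfap2c* was expressed in all libraries and was 1.52-fold higher in WT 2i than in WT serum. This call was lost without any 1 of 3 libraries and was not made in P53-/- ESCs with all libraries fitted. *Cdx2*, *Elf5* and *Hand1* lay at or below 1.05 FPKM in all 8 libraries, and *Krt19* lay near 1 FPKM in all of them.

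The targeted gene was lower in all libraries labelled P53-/-. *Trp53* measured 7.25 and 1.88 FPKM in P53-/- 2i against 26.8 and 33.7 in WT 2i, and 16.8 and 3.68 in P53-/- serum against 77.6 and 75.1 in WT serum. In limma its log2 fold change was -2.98 in 2i (adjusted p = 0.0547) and -3.26 in serum (adjusted p = 0.150). A cut in an exon need not remove the transcript, and *Cdkn1a*, a P53 target, fell in both cultures (log2 fold changes of -2.24 in 2i and -2.18 in serum, limma adjusted p = 0.00218 and 0.00601). The defining ESC marker *Pou5f1* lay between 473 and 982 FPKM in the 8 libraries. Values are FPKM (fragments per kilobase of transcript, scaled to the number of mapped fragments), which hold no counts. From the steps between low values the depth was estimated at 5250000 to 13300000 fragments per library, up to a factor common to all libraries, and the fragment numbers given for single genes rest on that estimate. The summed FPKM of a library came for 92.4% to 99.1% from small RNA genes. Scaling factors from the median ratio of the genes above 0 in all 8 libraries lay between 0.987 and 1.03.

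Differences were tested with limma on log2(FPKM + 0.1) over the 12572 genes whose mean FPKM reached 0.5, in 1 fit of the 4 groups. A difference was called where it exceeded 1.5-fold and its adjusted p lay under 0.1. Fold changes on this scale understate the change of low genes. Of the 8 markers 6 passed the filter and were tested. *Elf5* and *Hand1* did not pass it. *Cdx2* passed narrowly, with a mean of 0.520 FPKM, through its WT 2i libraries. *Krt7* passed with a mean of 0.737 FPKM through its P53-/- 2i libraries, and its other 6 libraries averaged 0.261 FPKM. For both, the filter thus favoured a difference. In bulk samples, fewer cells of a type and less RNA per cell cannot be told apart. With 2 libraries against 2, an exact two-sided test on a single gene cannot give a p below 0.33.

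**Figure D1:**
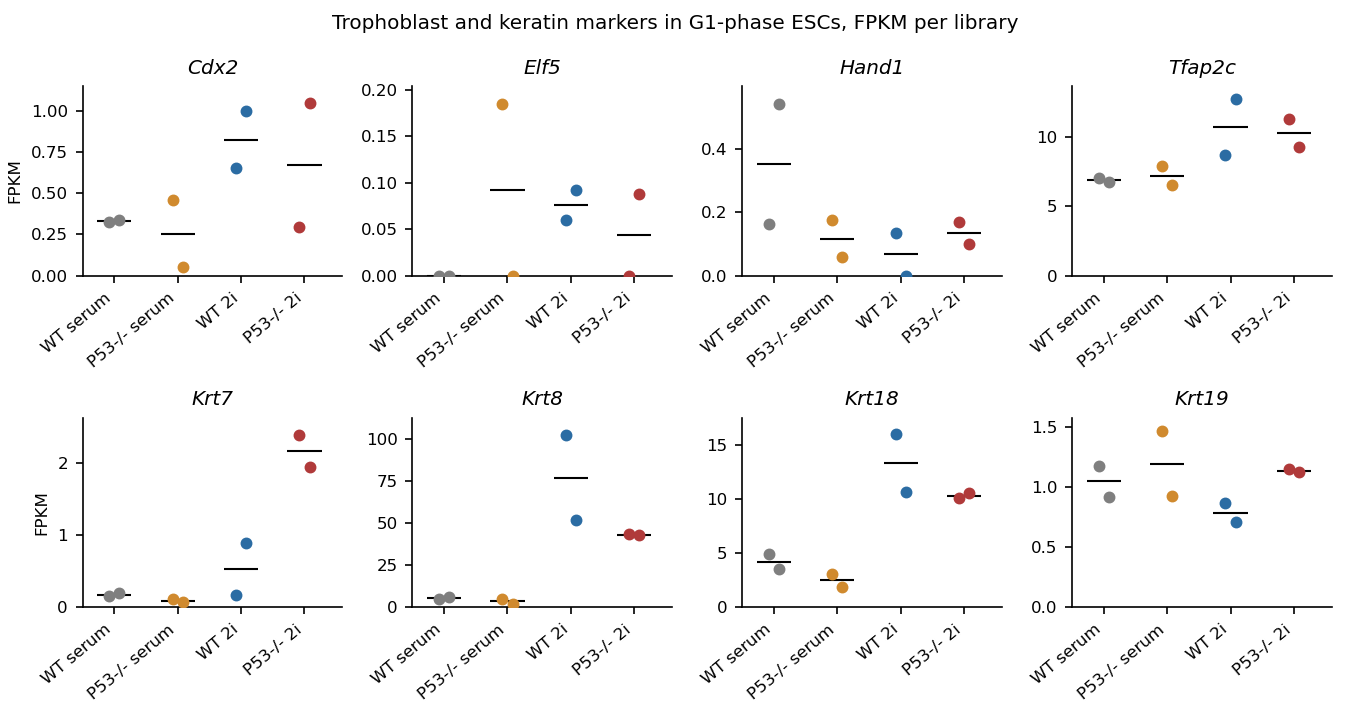
FPKM of the 8 markers (y axis, linear, one scale per gene) in the 8 libraries, grouped by genotype and culture, with 1 point per library and a bar at the mean of each group of 2. *Krt8* and *Krt18* separate the cultures, *Krt7* is highest in P53-/- 2i, and *Cdx2*, *Elf5* and *Hand1* stay at or below 1.05 FPKM.

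*Krt8* is the type II keratin of simple epithelia. In GENCODE M21 (GRCm38) it lies on the minus strand of chromosome 15, from 101996698 to 102004482. It measured 4.77 and 6.31 FPKM in WT serum, 4.88 and 1.91 in P53-/- serum, 103 and 51.9 in WT 2i, with 43.3 and 42.9 in P53-/- 2i. All 4 libraries of 2i ESCs lay above all 4 of serum ESCs, with no overlap. The group means were 5.54 ± 1.09 (SD, n = 2) in WT serum, 3.40 ± 2.10 in P53-/- serum, 77.2 ± 35.8 in WT 2i and 43.1 ± 0.296 in P53-/- 2i. The WT 2i libraries had the largest SD in FPKM, and they rest on about 1569 and 533 fragments of *Krt8*. In limma the log2 fold change of WT 2i against WT serum was 3.71 (SE 0.44, adjusted p = 0.000294), rank 201 of 12572 genes from the top. In P53-/- ESCs the log2 fold change between the cultures was 3.77 (SE 0.44, limma adjusted p = 0.000234), rank 211, and it was 4.42 without P53-/- serum library 1 and 3.12 without P53-/- serum library 2. A processed copy of the gene, *Krt8-ps*, is annotated in GENCODE M21 and has no line in the table, so that reads from it could have been counted as *Krt8*.

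*Krt18* is the type I partner of *Krt8*, and its gene lies near *Krt8* on the plus strand of chromosome 15, from 102028180 to 102032027, with a gap of 23.7 kb between them. It measured 4.92 and 3.52 FPKM in WT serum, 3.11 and 1.90 in P53-/- serum, 16.1 and 10.7 in WT 2i, with 10.1 and 10.6 in P53-/- 2i. Again the 4 libraries of 2i ESCs all lay above the 4 of serum ESCs. The means were 4.22 ± 0.991 (SD, n = 2), 2.51 ± 0.856, 13.4 ± 3.77 and 10.3 ± 0.315 in the same order. The log2 fold change of WT 2i against WT serum was 1.63 (SE 0.29, limma adjusted p = 0.00196), and that of P53-/- 2i against P53-/- serum was 2.04 (SE 0.29, limma adjusted p = 0.000597). As levels per length of transcript, *Krt18* was the lower partner in all libraries but WT serum library 1, and the partners were nearly equal in P53-/- serum library 2.

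The 2 partners moved together in direction but not in size. The ratio of *Krt8* to *Krt18* in FPKM was 0.971 and 1.80 in WT serum, 1.57 and 1.0 in P53-/- serum, 6.39 and 4.84 in WT 2i, with 4.28 and 4.06 in P53-/- 2i. The ratio was higher in each 2i library than in any serum library. Its means were 1.38 ± 0.583 (SD, n = 2) in WT serum and 1.29 ± 0.398 in P53-/- serum against 5.61 ± 1.10 in WT 2i and 4.17 ± 0.156 in P53-/- 2i. The ratio itself was not tested across genes, and 2 against 2 libraries allow no exact p below 0.33. Over the 8 libraries Pearson's r between the log2 values of *Krt8* and *Krt18* was 0.978, a description over points that share 4 groups, and *Krt18* ranked 113th of 11497 genes by likeness to *Krt8*.

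**Figure D2:**
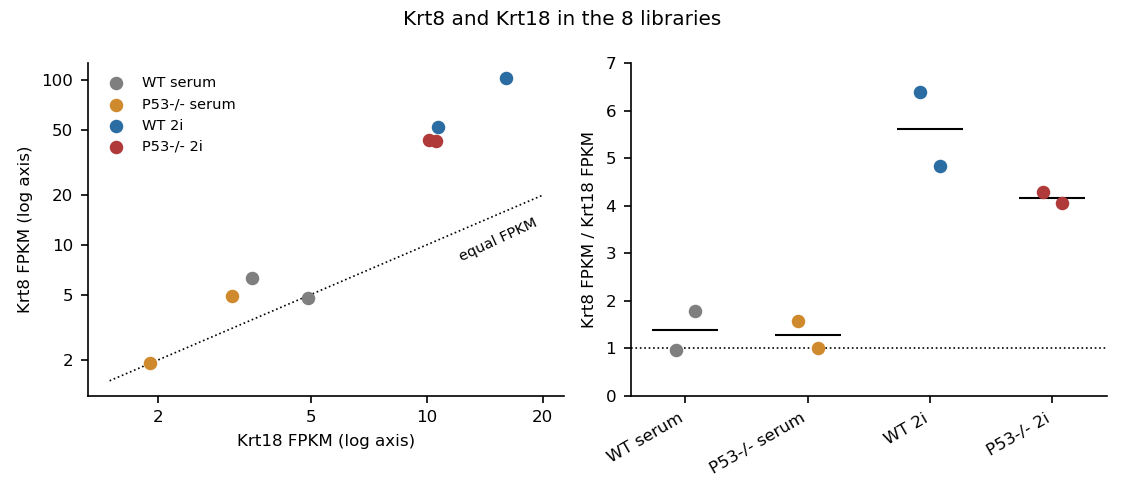
Left, *Krt8* FPKM against *Krt18* FPKM in the 8 libraries on log axes, with a dotted line at equal FPKM. Right, the ratio of *Krt8* to *Krt18* FPKM per library, with a bar at each group mean and a dotted line at 1. The serum libraries lie at ratios from 0.971 to 1.80 and the 2i libraries at ratios from 4.06 to 6.39.

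The promoters of *Krt8* and *Krt18* are shown because the genes are neighbours that moved together, and that of *Krt7* because its pattern differed. Sequences are from RefSeq (GRCm38.p6) and cover the 250 bases before the start that RefSeq annotates, written 5′ to 3′ on the strand of the gene. Capitals mark matches to the motifs searched. The *Krt8* window is chr15:102004343-102004592 (minus strand), the *Krt18* window is chr15:102027966-102028215 (plus strand) and the *Krt7* window is chr15:101412153-101412402 (plus strand). The starts differ from those of the gene positions given here, which are from GENCODE. The last 140 bases of the *Krt8* window and the last 36 of the *Krt18* window lie inside the GENCODE gene. The *Krt7* window lies wholly inside it, and its start is 1 base from that of the GENCODE transcript Krt7-201, while other *Krt7* transcripts start earlier.
*Krt8*: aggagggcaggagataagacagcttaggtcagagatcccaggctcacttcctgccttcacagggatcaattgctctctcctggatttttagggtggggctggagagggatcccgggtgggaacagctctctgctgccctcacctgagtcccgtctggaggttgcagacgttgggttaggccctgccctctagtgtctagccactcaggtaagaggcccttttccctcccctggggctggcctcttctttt
*Krt18*: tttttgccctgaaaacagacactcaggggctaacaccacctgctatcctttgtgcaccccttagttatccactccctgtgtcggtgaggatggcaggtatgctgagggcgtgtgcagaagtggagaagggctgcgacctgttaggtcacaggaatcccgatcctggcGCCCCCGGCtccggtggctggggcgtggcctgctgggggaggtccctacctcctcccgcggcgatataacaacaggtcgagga
*Krt7*: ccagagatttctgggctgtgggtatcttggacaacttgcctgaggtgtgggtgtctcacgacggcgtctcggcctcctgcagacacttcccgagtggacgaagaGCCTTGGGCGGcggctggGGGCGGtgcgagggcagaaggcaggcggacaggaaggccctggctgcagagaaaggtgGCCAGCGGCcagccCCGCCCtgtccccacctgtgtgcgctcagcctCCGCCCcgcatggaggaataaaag

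Of the 8 markers 5 (*Cdx2*, *Elf5*, *Krt7*, *Krt8* and *Krt18*) matched a promoter in the RefSeq set, and *Elf5* matched 2 windows. Motifs were searched on both strands. The TATA box was searched as TATAAA and the NF-Y motif as CCAAT. For the factor Sp1 the letters were GGGCGG, for AP-1 they were TGANTCA, for AP-2 they were GCCNNNGGC and for TEAD factors they were GGAATG. The P53 full site was searched by name. The *Krt8* window held none of these. The *Krt18* window held 1 AP-2 match, at -83 to -75 from the start, and AP-2 is the family to which *Tfap2c* belongs. The *Krt7* window held 2 AP-2 matches, at -146 to -138 and at -70 to -62, and 4 Sp1 matches. The first of these AP-2 matches overlaps the Sp1 match at -141 to -136. The *Cdx2* window held an AP-2 and an NF-Y match, and 1 of the 2 *Elf5* windows held a TEAD match. That *Elf5* window lies wholly inside the GENCODE gene, and its start is 385 bases from the nearest start of a GENCODE transcript. Over all 32536 promoter windows of this length, 13.8% held the AP-2 letters, 33.0% the Sp1 letters, 33.8% the NF-Y letters, 12.6% the TEAD letters, 12.3% the TATA box, 6.73% the AP-1 letters and 0.0645% the P53 full site. A match is a run of letters and not a site of binding.

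*Krt7* is a type II keratin of glandular epithelia and of the trophoblast, and its gene lies 566 kb before *Krt8* on chromosome 15, from 101411043 to 101430313 on the plus strand. It measured 0.151 and 0.190 FPKM in WT serum, 0.108 and 0.0716 in P53-/- serum, 0.165 and 0.883 in WT 2i, with 2.39 and 1.94 in P53-/- 2i. Both P53-/- 2i libraries lay above the other 6. Behind these values stand about 35 and 16 fragments in P53-/- 2i, about 2 and 7 in WT 2i, and 1 to 3 in each serum library. *Krt7* passed the filter through its P53-/- 2i libraries, so that the filter favoured both differences given next. Against P53-/- serum, *Krt7* rose in P53-/- 2i by a log2 fold change of 3.58 (SE 0.67, limma adjusted p = 0.00229). Against WT 2i, *Krt7* rose in P53-/- 2i by a log2 fold change of 2.14 (SE 0.67, limma adjusted p = 0.0972), which lies just inside the threshold of 0.1. The latter call was lost when any 1 of 3 libraries was left out. The log2 fold change was then 2.00 without P53-/- 2i library 1, 2.29 without P53-/- 2i library 2 and 1.20 without WT 2i library 1 (limma adjusted p = 0.268, 0.259 and 0.214), and without WT 2i library 2 it was 3.09. Fitted with the 2i libraries alone, the adjusted p in limma was 0.226.

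The WT 2i libraries differed from each other in *Krt7* by more than the WT groups did. *Krt7* in WT 2i against WT serum gave a log2 fold change of 0.92 (SE 0.67, limma adjusted p = 0.261), with overlapping libraries. Without WT 2i library 1 the value was 1.87 (limma adjusted p = 0.0201), and without WT 2i library 2 it was -0.02. In serum both P53-/- libraries lay below both WT libraries, at a log2 fold change of -0.51 (SE 0.67, limma adjusted p = 0.816). The difference between the P53 effects in 2i and in serum was 2.65 on the log2 scale (SE 0.94, unadjusted p = 0.0231) and did not pass in limma (adjusted p = 0.307).

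*Krt19*, a type I keratin without a tail domain, lies on chromosome 11 from 100140810 to 100148665 (minus strand), away from the other 3. It measured 1.18 and 0.919 FPKM in WT serum, 1.47 and 0.926 in P53-/- serum, 0.869 and 0.709 in WT 2i, with 1.15 and 1.13 in P53-/- 2i. These values rest on about 6 to 28 fragments per library. *Krt19* passed in none of the comparisons of the main fit. Under quantile normalization it was called lower in WT 2i than in WT serum (log2 fold change -0.76, limma adjusted p = 0.0906). Its log2 fold change was -0.37 (SE 0.34) for WT 2i against WT serum, -0.03 (SE 0.34) for P53-/- 2i against P53-/- serum, 0.49 (SE 0.34) for P53-/- against WT in 2i and 0.15 (SE 0.34) in serum. A fold change of the size seen in *Krt8* lies far outside these errors.

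*Tfap2c*, which codes for AP-2 gamma, was the only one of the 4 transcription factors above 2 FPKM. Its gene spans 172549593 to 172558622 on chromosome 2 (plus strand). It measured 7.06 and 6.78 FPKM in WT serum, 7.90 and 6.52 in P53-/- serum, 8.71 and 12.7 in WT 2i, with 11.3 and 9.29 in P53-/- 2i. All 2i libraries lay above all serum libraries, by a small margin. The log2 fold change of WT 2i against WT serum was 0.60 (SE 0.21, limma adjusted p = 0.0387), a 1.52-fold rise that lies just past the threshold of 1.5. That of P53-/- 2i against P53-/- serum was 0.51 (SE 0.21, limma adjusted p = 0.0657), a 1.42-fold difference that lies just short of it. With single libraries left out this value ran from 0.37 to 0.65, and it was called without P53-/- serum library 1. Leaving out 1 library ended the call in WT without WT 2i library 2 (log2 fold change 0.33, limma adjusted p = 0.206), without WT serum library 1 (adjusted p = 0.128) and without WT serum library 2 (adjusted p = 0.165). Between genotypes *Tfap2c* differed by -0.04 in 2i and 0.05 in serum on the log2 scale (SE 0.21 each).

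*Cdx2*, on chromosome 5 from 147300805 to 147307270 (minus strand), was low. It measured 0.323 and 0.338 FPKM in WT serum, 0.460 and 0.0508 in P53-/- serum, 0.653 and 0.998 in WT 2i, with 0.295 and 1.05 in P53-/- 2i. These values stand for about 1 to 12 fragments per library. Both WT 2i libraries lay above both WT serum libraries, and the libraries of the P53-/- groups overlapped between the cultures. The log2 fold changes of 1.08 in WT and 1.21 in P53-/- ESCs between 2i and serum (SE 0.77 each, limma adjusted p = 0.253 and 0.201) did not pass. Between genotypes *Cdx2* differed by -0.44 in 2i and -0.57 in serum (SE 0.77 each). The call depended on the fit. With only the WT groups fitted, *Cdx2* was called in WT 2i against WT serum (limma adjusted p = 0.0564), and in P53-/- ESCs it was called without P53-/- serum library 1 (limma adjusted p = 0.0506) and without P53-/- 2i library 1 (limma adjusted p = 0.0909).

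*Elf5* and *Hand1* were barely present. *Elf5* (chromosome 2, 103411688 to 103450989, plus strand) was listed at 0 in both WT serum libraries, in P53-/- serum library 2 and in P53-/- 2i library 1. Its other 4 libraries lay between 0.0600 and 0.185 FPKM, which are about 1 to 5 fragments. *Hand1* (chromosome 11, 57828705 to 57832818, minus strand) measured 0.164 and 0.542 FPKM in WT serum, 0.176 and 0.0583 in P53-/- serum, 0.136 and 0 in WT 2i, with 0.168 and 0.0995 in P53-/- 2i. Its highest value stands for about 7 fragments. Neither gene was tested here. With all genes above 0 tested, *Hand1* was called lower in WT 2i than in WT serum (log2 fold change -1.42, limma adjusted p = 0.0962), and *Elf5* was called in none of the comparisons.

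Set side by side, and with the filter acting on *Krt7* and *Cdx2* as above, 3 of the 6 markers tested were called in WT 2i against WT serum, all higher (*Krt8*, *Krt18* and *Tfap2c*). Of all genes tested, 55.7% were called in this comparison, 27.2% higher and 28.6% lower. In P53-/- 2i against P53-/- serum 3 of 6 were called, all higher (*Krt8*, *Krt7* and *Krt18*), beside 58.2% of all genes, 28.0% higher and 30.1% lower. The share of markers called in either direction thus lies near the background. The median log2 fold change of the 6 was 1.0 in WT and 1.63 in P53-/- ESCs, beside -0.02 and -0.03 over all genes tested. In P53-/- against WT in 2i, 1 of 6 was called (*Krt7*, higher), beside 10.3% of all genes (4.36% higher and 5.97% lower), and the median was -0.19 beside 0.02. In serum, limma called 0 of 6 beside 1.02% of all genes (0.135% higher and 0.883% lower), 1 of the 6 (*Krt18*) had an unadjusted p under 0.05, as did 11.3% of all genes, and the median was -0.54 beside 0.02. For the difference of the P53 effects between the cultures limma called 0 of 6 beside 0.207% of all genes (0.103% in each direction), and 1 of the 6 (*Krt7*) had an unadjusted p under 0.05, as did 13.1% of all genes. These comparisons share libraries, and their values are not independent of each other.

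**Figure D3:**
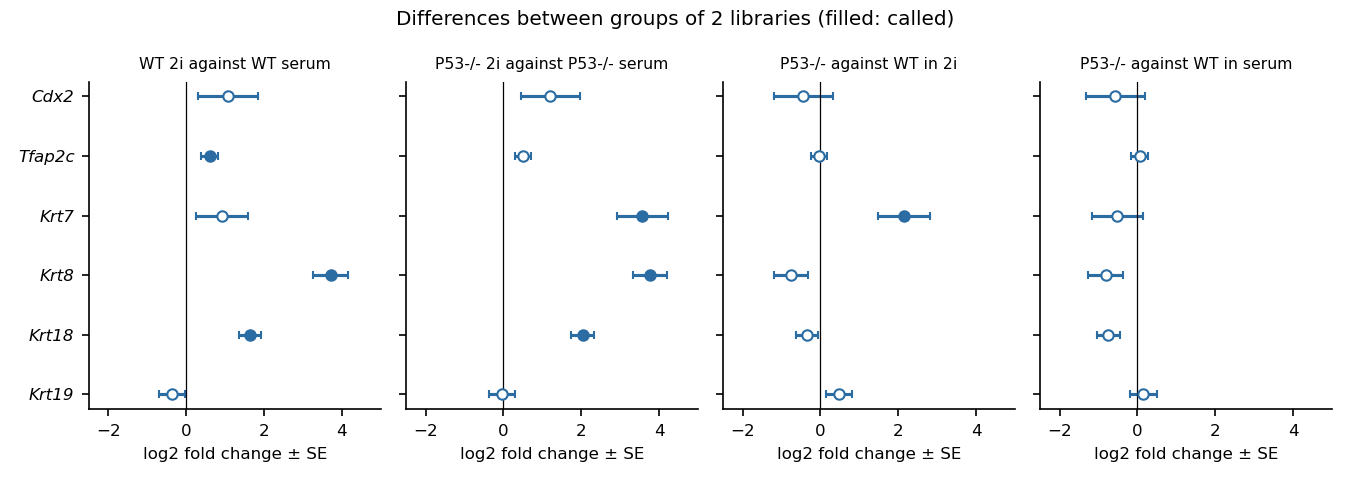
Log2 fold change (x axis, on the log2(FPKM + 0.1) scale) of the 6 markers tested in 4 comparisons, each between groups of 2 libraries, with bars of 1 SE from limma. Filled points were called. *Krt8* and *Krt18* lie far to the right in both comparisons of cultures, *Krt7* in P53-/- 2i against P53-/- serum and against WT 2i, and no point is filled in serum.

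Loss of P53 left *Krt8* and *Krt18* without a call in either culture. *Krt8* was lower in both P53-/- 2i libraries than in both WT 2i libraries, at a log2 fold change of -0.76 (SE 0.44, limma adjusted p = 0.331). In serum the *Krt8* libraries of the genotypes overlapped, at -0.82 (SE 0.44, limma adjusted p = 0.523). *Krt18* differed by -0.34 in 2i (SE 0.29, limma adjusted p = 0.511) and by -0.75 in serum (SE 0.29, unadjusted p = 0.0333, limma adjusted p = 0.392), with both P53-/- libraries below both WT libraries in each culture. By group means the order of *Krt8* levels was WT 2i, P53-/- 2i, WT serum and P53-/- serum. Between the genotypes the difference was not called in either culture, while between the cultures it was called in both genotypes.

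Among the 55 keratin genes of the table these 4 stood with few others. 27 keratins were at 0 in all libraries, 44 had a mean under 0.1 FPKM, and 8 passed the filter, of which 6 are type I and 2 type II. By mean over the 8 libraries *Krt8* (32.3 FPKM) was followed by the type I keratins *Krt42* (9.37), *Krt18* (7.61), *Krt17* (4.72) and *Krt13* (2.04), then *Krt19* (1.04), *Krt10* (0.855) and *Krt7* (0.737). This order rests on the 2i libraries. In serum *Krt42* (10.5 ± 0.471 FPKM in WT and 6.19 ± 1.15 in P53-/-, SD, n = 2) and *Krt17* (8.30 ± 1.35 and 4.04 ± 0.218) had higher means than *Krt8* in both genotypes, while in 2i *Krt8* had the highest mean in both. *Krt8* made up 88.6% to 99.4% of the summed FPKM of type II keratins in a library, and *Krt18* made up 11.3% to 58.1% of the type I sum. The ratio of the type II sum to the type I sum was 0.173 and 0.252 in WT serum, 0.299 and 0.128 in P53-/- serum, 2.98 and 1.20 in WT 2i, with 1.81 and 2.47 in P53-/- 2i. In summed FPKM, type I keratins exceeded type II in all serum libraries and type II exceeded type I in all 2i libraries. Between *Krt7* and *Krt18* chromosome 15 holds 26 keratin genes of the table within 621 kb. Of the 23 that are not markers here, 13 were at 0 in all libraries, and the highest, *Krt83*, reached 0.148 FPKM.

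Other keratins fell where *Krt8* and *Krt18* rose. *Krt10*, a keratin of differentiated epidermis, measured 1.25 and 0.764 FPKM in WT serum against 0.366 and 0.280 in WT 2i, and 2.01 and 1.41 in P53-/- serum against 0.403 and 0.358 in P53-/- 2i. Its log2 fold changes were -1.36 in WT and -1.89 in P53-/- ESCs (limma adjusted p = 0.0201 and 0.00437). *Krt17* fell by 0.87 and 1.04 on the log2 scale (limma adjusted p = 0.0603 and 0.0312), and it was lower in P53-/- than in WT 2i (-1.18 in log2 units, with a limma adjusted p of 0.0845). *Krt42* did not pass between the cultures, with 10.8 and 10.2 FPKM in WT serum against 10.8 and 18.5 in WT 2i.

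**Figure D4:**
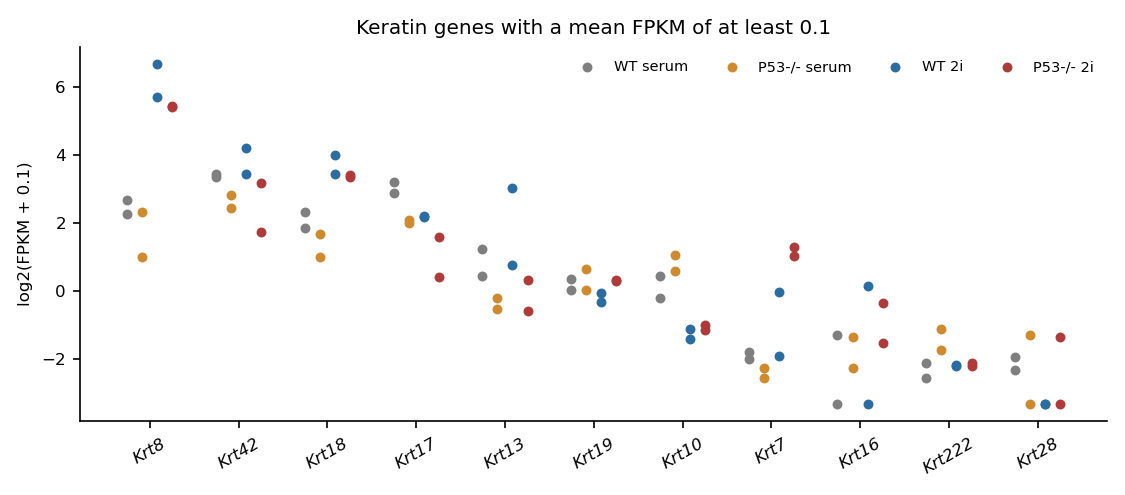
Levels as log2(FPKM + 0.1) (y axis) of the 11 keratin genes with a mean of at least 0.1 FPKM, with 1 point per library, coloured by group and ordered by mean FPKM. The 2i libraries lie above the serum libraries in *Krt8* and *Krt18* and below them in *Krt10*, and P53-/- 2i stands highest in *Krt7*.

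Other trophoblast genes were read from a list of 32 that holds none of the 8 markers. 9 of them were at 0 in all libraries, among them the placental hormone genes *Prl3d1* and *Prl3b1*, the spongiotrophoblast marker *Tpbpa* and the syncytin genes *Syna* and *Synb*. The transcription factor *Gata3* was at 0 in 6 of 8 libraries and reached 0.0930 FPKM. Of 15 genes tested, 6 rose and 4 fell in WT 2i against WT serum, with a median log2 fold change of 0.24, beside 27.2% of all genes higher and 28.6% lower. In P53-/- ESCs 4 rose and 4 fell, with a median of 0.46, beside 28.0% and 30.1% of all genes. These shares, and a median near 0 over all genes, are also the background of the lists that follow. The homeobox genes *Rhox6* and *Rhox9*, which are active in placenta, rose in both genotypes, *Rhox6* from 0.517 and 0.200 FPKM in WT serum to 13.7 and 15.5 in WT 2i (5.09 in log2 units, with a limma adjusted p of 9.42e-05). The imprinted genes *Peg10*, needed for placental development, and *Phlda2*, which restrains placental growth, fell in both, *Peg10* from 123 and 146 FPKM to 16.3 and 6.83 in WT (log2 fold change -3.65, limma adjusted p = 0.000104). The summed level of the list was 174 to 204 FPKM in serum libraries, most of it from *Peg10*, and 73.2 to 92.4 in 2i libraries.

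In P53-/- against WT in 2i, 2 of these 15 genes rose and 1 fell, with a median of -0.06, beside 4.36% of all genes higher and 5.97% lower. *Tinagl1*, a secreted matrix protein, measured 27.5 and 27.4 FPKM in P53-/- 2i against 5.71 and 4.12 in WT 2i (2.48 on the log2 scale, SE 0.33, limma adjusted p = 0.00711). *Gata2*, a trophoblast and blood transcription factor, measured 1.11 and 0.957 FPKM against 0.277 and 0.121 (log2 fold change 1.97, SE 0.45, limma adjusted p = 0.0443). It passed the filter, with a mean of 0.567 FPKM, through P53-/- 2i alone, and its other 6 libraries averaged 0.412 FPKM, so that its call was favoured by the filter. *Lgals3*, a galectin, fell by 1.01 on the log2 scale (limma adjusted p = 0.0847). *Eomes*, a factor of trophoblast stem cells, measured 1.02 and 0.879 FPKM in P53-/- 2i against 1.76 and 1.60 in WT 2i (-0.77 in log2 units, with a limma adjusted p of 0.169). In serum limma called 0 of the 15, with a median of 0.04, beside 1.02% of all genes, and the unadjusted p was under 0.05 for 1 of them and for 11.3% of all genes.

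**Figure D5:**
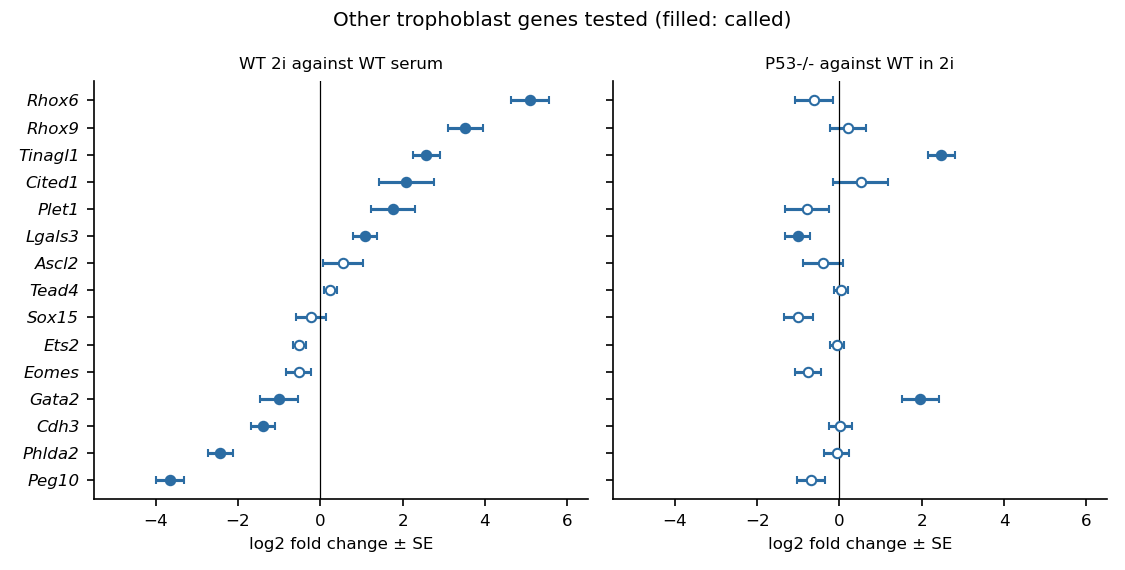
Log2 fold change (x axis, on the log2(FPKM + 0.1) scale) of the 15 other trophoblast genes tested, for WT 2i against WT serum and for P53-/- against WT in 2i, groups of 2 libraries each, with bars of 1 SE from limma. Filled points were called. The list moves both ways between the cultures, and *Tinagl1* and *Gata2* are higher and *Lgals3* is lower in P53-/- 2i.

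The Hippo pathway, which holds back the *Yap1* and *Tead4* factors that switch on *Cdx2* in the outer cells of the embryo, gave calls both ways between the cultures. Of 19 of its 21 genes tested, 5 rose and 7 fell in WT 2i against WT serum (median log2 fold change -0.09), and 7 rose and 7 fell in P53-/- ESCs (median 0.35). The Yap target *Ctgf* rose from 3.27 and 3.88 FPKM in WT serum to 14.9 and 15.4 in WT 2i (2.06 in log2 units, with a limma adjusted p of 4.14e-05). *Yap1* itself fell, from 44.0 and 42.0 FPKM in WT serum to 16.7 and 15.9 in WT 2i (-1.39 in log2 units, with a limma adjusted p of 0.000172), and in P53-/- ESCs by 1.12 on the log2 scale (limma adjusted p = 0.000398). The pathway components *Amot*, *Mob1b* and *Sav1* fell in WT, by 2.40, 2.05 and 1.63 on the log2 scale. *Tead4* was at 5.40 to 9.26 FPKM in all libraries and was called in none of the comparisons. In P53-/- against WT, limma called 0 of the 19 in 2i (median 0.22), beside 10.3% of all genes, with an unadjusted p under 0.05 for 4 of them and for 25.2% of all genes. It called 1 in serum, beside 1.02% of all genes, the *Yap1* paralog *Wwtr1* (log2 fold change -0.73, adjusted p = 0.0828, median of the list 0.08).

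Desmosomes anchor keratin filaments at the contacts between cells. Of 11 desmosome and keratin linker genes tested, 1 rose and 6 fell in WT 2i against WT serum (median -0.72), beside 27.2% of all genes higher and 28.6% lower, and the same counts held in P53-/- ESCs (median -0.76). *Plec* and *Pkp2* were among those that fell in both genotypes. *Perp*, a desmosome gene that is also a P53 target, measured 22.6 and 26.1 FPKM in WT serum, 2.94 and 1.57 in P53-/- serum, 2.37 and 8.49 in WT 2i, with 0.616 and 1.19 in P53-/- 2i. It fell with the loss of P53 in 2i (-2.26 in log2 units, with a limma adjusted p of 0.0587) and in serum (-3.44, limma adjusted p = 0.0557). In P53-/- against WT in 2i 2 of the 11 fell and none rose (median -0.34, beside 5.97% and 4.36% of all genes), and in serum 1 fell (median -0.44, beside 0.883% of all genes).

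Of 22 epithelial junction genes, all tested, 8 rose and 7 fell in WT 2i against WT serum (median 0.21), and 8 rose and 8 fell in P53-/- ESCs (median -0.33). The claudins moved apart. *Cldn4* rose from 21.2 and 20.5 FPKM in WT serum to 162 and 94.3 in WT 2i (2.56 in log2 units, with a limma adjusted p of 0.000172), and *Cldn6* fell by 2.08 (limma adjusted p = 0.00291). In P53-/- against WT in 2i 3 rose and 1 fell (median -0.06), beside 4.36% of all genes higher and 5.97% lower. *Cldn3* measured 8.99 and 8.74 FPKM in P53-/- 2i against 2.78 and 2.44 in WT 2i (1.73 in log2 units, with a limma adjusted p of 0.0205), and *Cldn6* and *Epcam* were higher by 1.60 and 0.99. In serum limma called 0 of the 22 (median -0.06), beside 1.02% of all genes, with an unadjusted p under 0.05 for 2 of them and for 11.3% of all genes.

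By likeness over the 8 libraries, the 3 genes nearest to *Krt8* were *Rasal1*, *Sema3b* and *Clstn1* (Pearson's r of 0.992 to 0.994), and those nearest to *Krt18* were *Prkag1*, *Aacs* and *Vps28* (0.993 to 0.995). *Krt7* was followed most closely by *Ahsa1*, *Plekhh1* and *Clcc1* (0.977 to 0.984), and *Tfap2c* by *Nxt1*, *Epb41l3* and *Zbtb9* (0.964 to 0.979). For *Cdx2* the nearest were *Ccdc40*, *Zfp839* and *Zbtb38* (0.959 to 0.977), and for *Krt19* *Tango6*, *Qrich1* and *Swsap1* (0.923 to 0.971). Among the markers themselves, r was 0.656 between *Krt7* and *Krt8*, 0.793 between *Tfap2c* and *Krt8*, 0.746 between *Cdx2* and *Krt8* and -0.352 between *Krt19* and *Krt8*. These values describe likeness over 8 libraries of 4 groups and carry no test.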

How the data were processed

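G1-phase sorted R1 FUCCI ESCs, WT and P53-/-, were analysed in serum and 2i, with 2 libraries per group. Per the labels, total RNA was depleted of ribosomal RNA, reverse-transcribed with random primers and made into stranded libraries. The authors deposited FPKM values, 1 column per library. The submitters' processing notes name STAR, Cufflinks, DESeq2 and mm9 without roles or versions, and how reads of similar genes were shared out is not given in the sources used here. Libraries of P21-/- ESCs, and WT 2i libraries that accompany them, were not analysed here.

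R 4.3.3 and limma 3.58.1 were used for tests of log2(FPKM + 0.1) where the mean FPKM reached 0.5, with an eBayes trend and Benjamini-Hochberg adjustment over all 12572 genes. As in the paper, calls needed more than a 1.5-fold difference and an adjusted p under 0.1. The test was also run on data simulated with normal noise on the same log2 scale, which cannot show how it behaves for genes with few fragments. Depth was estimated from the steps of low FPKM values, and fragments from the length of a gene, which for *Cdx2*, *Elf5*, *Hand1* and *Krt7* was set to bring low values nearest to whole fragments. For these genes the smallest value above 0 was assumed to be 1 fragment, and their fragment numbers rest on that assumption. Positions are from GENCODE M21 (GRCm38) and promoters from RefSeq (GRCm38.p6), matched by symbol, since the table holds no coordinates. Figures were drawn with matplotlib 3.10.9 in Python 3.11.15.

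The markers, lists and tests were chosen with earlier results of these data known. Named were the 8 markers, per list up to 4 called genes with the largest change in a contrast and the highest gene, and per marker the 3 genes most like it. *Yap1*, *Tead4*, *Eomes*, *Gata3*, *Gata4*, *Sox17*, *Sox7*, *Krt42*, *Krt13*, *Krt83* and the genes listed at 0 were named after their values were seen. The fits were repeated with pseudocounts of 1 and 0.01, with all genes above 0 or those whose mean FPKM reached 1, with median-ratio or quantile scaling, with eBayes without trend, with an adjusted p under 0.05, without small RNA genes, on the compared groups only, and with each library left out in turn.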

Additional observations from a re-analysis of the deposited data

How the results depend on the processing

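No paired analysis was possible because the columns carry no replicate numbers. The log2 fold changes of *Krt8* and *Krt18* between the cultures kept their direction and call under all alternatives, at 3.51 to 3.88 and 1.45 to 1.71 in WT and at 3.41 to 3.82 and 1.71 to 2.09 in P53-/- ESCs. With single libraries left out *Krt8* ran from 3.22 to 4.20 in WT and from 3.12 to 4.42 in P53-/-, and *Krt18* from 1.35 to 1.92 and from 1.70 to 2.38. An arm left with 1 library was assumed to vary like the other groups.

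The count of markers called in P53-/- against WT in 2i was 1 and fell to 0 with a pseudocount of 0.01 (*Krt7*, limma adjusted p = 0.133), with a mean FPKM of at least 1 (*Krt7* not tested), with an adjusted p under 0.05 and with only the 2i groups. With single libraries left out it was 0 to 1. Over all its alternatives the adjusted p of *Krt7* ran from 0.0365 to 0.268. The count in P53-/- 2i against P53-/- serum was 3, 2 with a mean FPKM of at least 1, 3 under the other alternatives, and 3 to 5 with single libraries left out (5 without P53-/- serum library 1, which added *Cdx2* and *Tfap2c*). In WT 2i against WT serum it was 3, and 2 to 4 under the alternatives and with libraries left out. In serum and for the difference of effects it was 0 throughout. In WT 2i against WT serum *Tfap2c* lost its call with a pseudocount of 1 (log2 fold change 0.55), and *Hand1* passed with all genes above 0 tested (-1.42, limma adjusted p = 0.0962), *Krt19* under quantile normalization (-0.76, limma adjusted p = 0.0906) and *Cdx2* with only the WT groups (limma adjusted p = 0.0564). The cause was not tested.

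Signs turned only in values that were not called. For the difference of effects *Cdx2* was -0.056 and *Krt8* -0.10 with a pseudocount of 1, and *Krt8* -0.13 under quantile normalization. *Krt19* in P53-/- 2i against P53-/- serum was 0.014 under median-ratio scaling. With single libraries left out, the difference of effects ran from -0.81 to 1.08 for *Cdx2*, from -0.36 to 0.18 for *Tfap2c* and from -0.59 to 0.71 for *Krt8*. *Cdx2* ran from -1.20 to 0.33 between genotypes in 2i and from -1.51 to 0.38 in serum, and *Tfap2c* from -0.31 to 0.23 and from -0.084 to 0.19. *Krt19* ran from -0.15 to 0.46 between genotypes in serum and from -0.34 to 0.27 between cultures in P53-/-, and *Krt7* from -0.024 to 1.87 between cultures in WT.

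The share of all genes called in P53-/- against WT in 2i was 10.3%, 6.13% with an adjusted p under 0.05 and 1.54% with only the 2i groups. With single libraries left out it was 3.91% to 9.74%, at 6.13% without P53-/- 2i library 1 and 3.91% without P53-/- 2i library 2. In serum it was 1.02%, and 0.294% with only the serum groups, 0.522% with all genes above 0 and 0.581% with an adjusted p under 0.05. With single libraries left out it was 0.414% to 1.18%, at 0.501% without P53-/- serum library 2, 0.493% without WT serum library 1 and 0.414% without WT serum library 2. For the difference of effects it was 0.207%, and 0.127% to 0.525% among the alternatives and 0.151% to 0.549% with single libraries left out, at 0.549% without WT 2i library 1, 0.430% without P53-/- serum library 1 and 0.350% without WT serum library 1. The values of *Cdx2*, *Elf5*, *Hand1* and *Krt7* rest on about 12 fragments or fewer in all libraries but the P53-/- 2i libraries of *Krt7*.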

Other observations

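Markers of other lineages that the cultures could hold were read from lists as well. Of 18 primitive streak and mesoderm markers 6 were tested, and 4 rose and none fell in WT 2i against WT serum (median log2 fold change 0.97), beside 27.2% of all genes higher and 28.6% lower. Of these 6 the gene of Brachyury passed the filter through its WT 2i libraries alone. *Gsc* measured 6.85 and 8.14 FPKM in WT 2i and was listed at 0 in both WT serum libraries, and *Cdx1*, a relative of *Cdx2*, measured 4.76 and 3.48 FPKM in WT serum against 9.19 and 9.51 in WT 2i (1.18 in log2 units, with a limma adjusted p of 0.00132). In P53-/- ESCs *Cdx1* measured 4.62 and 5.11 FPKM in serum against 11.2 and 13.9 in 2i (1.34 in log2 units, with a limma adjusted p of 0.000624). In P53-/- 2i against P53-/- serum 3 of the 6 rose and 2 fell (median 0.65), beside 28.0% and 30.1% of all genes, and *Mesp2* was among those that fell (log2 fold change -1.04, limma adjusted p = 0.0478). Between genotypes limma called 0 of the 6 in 2i (median -0.83), beside 10.3% of all genes, with an unadjusted p under 0.05 for 3 of them and for 25.2% of all genes. In serum limma called 0 of the 6 (median -0.16), beside 1.02% of all genes, with an unadjusted p under 0.05 for 1 of them and for 11.3% of all genes. Of 18 primitive endoderm markers 8 were tested, and 1 rose and 5 fell in WT 2i against WT serum (median -1.34). The basement membrane collagen *Col4a1* fell by 3.72 on the log2 scale in WT (limma adjusted p = 0.000321). The transcription factors of this list went both ways. *Gata4* measured 0.830 and 0.614 FPKM in WT serum against 2.40 and 1.28 in WT 2i. *Sox17* and *Sox7* were not tested. *Sox17* measured 0.159 and 0 FPKM in WT serum against 1.09 and 0.395 in WT 2i, and *Sox7* 0.525 and 0.385 against 0 and 0.0581.

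ESCs are often grown on fibroblasts, and whether fibroblasts were used here is not given in the sources used here. Of 14 fibroblast markers 2 were tested, *Thy1* and *Pdgfrb*, the list summed to 2.10 to 12.4 FPKM in a library, *Col3a1*, *Postn* and *Fap* were at 0 in all libraries, and most of the sum in serum was *Thy1*, at 7.55 to 10.5 FPKM. *Thy1* lay at 0.343 to 0.972 FPKM in 2i libraries and fell in WT and in P53-/- ESCs (log2 fold changes of -3.53 and -4.01, limma adjusted p = 0.000299 and 0.000147), while *Pdgfrb* rose in WT 2i (1.25, limma adjusted p = 0.0252) and was not called in P53-/- ESCs. Of 13 markers of surface ectoderm and stratified keratinocytes 4 were tested, *Krt14* was at 0 in all libraries and *Krt5* reached 0.0372 FPKM in 1. Their summed level was 34.4 to 40.4 FPKM in WT and 17.1 to 28.6 in P53-/- libraries, with *Sfn* the highest gene. In P53-/- against WT in 2i 3 of the 4 fell (*Wnt6*, *Krt17* and *Sfn*), beside 5.97% of all genes. In serum limma called 0 of the 4 (median log2 fold change -0.74), beside 1.02% of all genes. Its unadjusted p there was under 0.05 for 2 of them and for 11.3% of all genes. Between the cultures 1 rose and 2 fell in WT 2i, and 0 rose and 3 fell in P53-/- 2i. Of 12 neural progenitor markers 4 were tested, none rose and 2 fell in WT 2i against WT serum. The part of any of these cell types in the keratin values was not tested.

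Of 15 pluripotency factors, all tested, 6 rose and 4 fell in WT 2i against WT serum (median 0.05), 4 rose and 7 fell in P53-/- 2i against P53-/- serum (median -0.51), and 1 rose and 2 fell in P53-/- against WT in 2i (median -0.28), beside 4.36% of all genes higher and 5.97% lower, which is also the background of the counts for that comparison that follow. *Dppa3*, also on the list of germ cell genes, measured 397 and 446 FPKM in P53-/- 2i against 28.1 and 31.5 in WT 2i (3.82 in log2 units, with a limma adjusted p of 0.00158). Of 9 primordial germ cell genes 8 were tested, and in that comparison 2 rose, *Dppa3* and *Kit*, and none fell. Among 12 other intermediate filament genes tested, 4 rose and 5 fell in WT 2i against WT serum (median -0.55), and 4 rose and 4 fell in P53-/- 2i against P53-/- serum (median 0.18). The neurofilament gene *Nefl* rose from 5.37 and 5.24 FPKM to 51.4 and 72.8 (log2 fold change 3.50, limma adjusted p = 0.000201), and *Ina* fell by 3.35 (limma adjusted p = 0.000226). In P53-/- against WT in 2i 3 of the 12 fell and none rose, beside 5.97% and 4.36% of all genes.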
